A study of Mus musculus with 8 samples.

Results

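Hippocampus and cerebral cortex of vehicle-treated adult mice were compared on 4 of the 8 arrays of the series, the 2 of vehicle hippocampus and the 2 of vehicle cortex. They were chosen by their labels alone, and 19572 of the 22206 probe sets of the array carry 1 gene symbol and enter the description. The animals were male and 12 weeks old, with the strain not stated in the labels, and had received vehicle (1% DMSO) for 2 weeks. The other 4 arrays are cortex and hippocampus, 2 each, of mice of the same sex and age given clothianidin, a neonicotinoid insecticide that acts on nicotinic acetylcholine receptors, at 50 mg/kg/day for 2 weeks. They served for the shared estimate of spread and as a regional comparison that has no array in common with the vehicle one. Each sample is bulk tissue. The labels do not say which part of the cortex was taken or whether arrays come from separate animals, so each p-value reflects how far arrays of a group differ, a spread that may be technical.

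The hippocampus is an older cortical structure, in which granule cells of the dentate gyrus excite CA3 pyramidal cells through mossy fibres and CA3 cells excite CA1. The neocortex is a layered sheet whose upper layers connect cortical areas and whose deep layers project to thalamus, brainstem and spinal cord. Both derive from the pallium and share glutamatergic principal cells and GABAergic interneurons, and they are known to differ in transcription factors, transmitter receptors, ion channels and adhesion molecules.

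Values are normalised log2 intensities, and a difference is always hippocampus minus cortex, so that a positive one is higher in hippocampus and 1 unit is a 2-fold difference. A gene is called where limma's p-value, adjusted by Benjamini-Hochberg over the 14804 probe sets tested, is under 0.05. Levels of different genes were not compared with each other, since probe sets differ in brightness. The 2 arrays of a vehicle group correlated across probe sets at r = 0.9826 in hippocampus and 0.9906 in cortex, and arrays of different tissues at 0.9555 to 0.9584. The median value of an array was 5.21 to 5.25 in cortex and 5.37 to 5.40 in hippocampus over all 8 arrays, and the median difference of all tested genes was 0.10, or 0.01 after quantile normalization. As a check of the tissue labels, Prox1, the dentate granule cell transcription factor, stood at 6.75 and 6.87 in cortex against 11.56 and 11.50 in hippocampus, and Tbr1, a transcription factor of deep-layer cortical neurons, at 15.82 and 15.40 in cortex against 12.31 and 12.32. Vehicle arrays 6 of cortex and 1 of hippocampus held much more transthyretin (Ttr), the transport protein of the choroid plexus, than the other vehicle arrays: Ttr stood at 4.17 and 15.41 in cortex against 19.51 and 7.76 in hippocampus.

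Of 13241 tested probe sets with a gene symbol, 2389 (18%) differed between the tissues of vehicle mice. In hippocampus 1365 (10.3%) were higher and in cortex 1024 (7.73%). The excess on the hippocampal side turned with the normalization, since 1140 and 1161 were called after quantile normalization. The count of each gene list below stands beside these shares of all genes, which apply to every list, and a share near them sets no list apart. A difference of at least 2-fold was called for 1913 (14.4%) and of at least 4-fold for 440 (3.32%). The values of the 2 hippocampal and 2 cortical arrays did not overlap for 7864 (59.4%), a far larger number than were called. The precision rests on pairs of arrays: 1178 were called without cortex vehicle 1, 1197 without cortex vehicle 6, 1977 without hippocampus vehicle 1 and 1739 without hippocampus vehicle 6, and all 2389 kept their sign each time. A gene whose vehicle arrays do not overlap between tissues cannot change sign when 1 of them is left out. Unless a sentence says otherwise, each gene described below as higher in one tissue stayed called when any 1 of the 8 arrays was left out. In 204 of the 2389 the mean of 1 tissue lay under 3.937, the limit of the filter on low values, and was not shown to be above background. Among the genes described below this held in cortex for Dsp, Lct, Spink8, Syna, Amigo2, Glipr1, Lhx9, Chrm5, Galr1, Cacng6, Grem1 and Calml4. In hippocampus it held for Foxp2, Syt6, Ntsr1, Nxph4, Hrh1, Adcyap1 and Trhr2. The size of their differences therefore rests on a level not shown to be above background. The limit marks the lowest 33.3% of probe sets by mean and is no detection limit. Means just above it were not shown to be above background either. Among these were the cortical mean of Ndst4 (4.07) and the hippocampal means of Ccn2 (4.04) and Dkkl1 (4.57), so their folds are uncertain too. With cells of many kinds in each sample, fewer cells of a type and less RNA per cell cannot be told apart.

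The clothianidin-exposed mice gave regional differences of mostly the same direction from separate arrays. Of the 2389 genes called in vehicle mice, 2356 (98.6%) differed in the same direction in exposed mice, 2209 without overlap and 1430 with a call there too, where 14.7% of all genes were called. All 440 called genes that differed at least 4-fold had the same direction, and 410 were called. The calls of the arms are not independent, since they share the estimate of spread of each probe set. A small spread between exposed arrays favours a call in vehicle mice too. The counts of calls and of genes without overlap are therefore no separate check, whereas the differences themselves share no array. Among the 10852 genes not called in vehicle mice the same direction was seen for 73.7%, and 2890 had no overlap, in the same direction, in both arms. The median size of the called differences was 1.30 in vehicle and 1.08 in exposed mice. Over 13241 probe sets the regional differences of the arms correlated at r = 0.85, a description across probe sets that share arrays within each arm. No probe set passed the limma test of the difference between arms (0 of 14804, with 511 or 3.45% at an unadjusted p under 0.05). Among genes with a symbol the smallest p belonged to Nr4a2, an orphan nuclear receptor, whose regional difference was -0.13 in vehicle and 2.13 in exposed mice (adjusted p of the difference = 0.12).

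**Figure D1:**
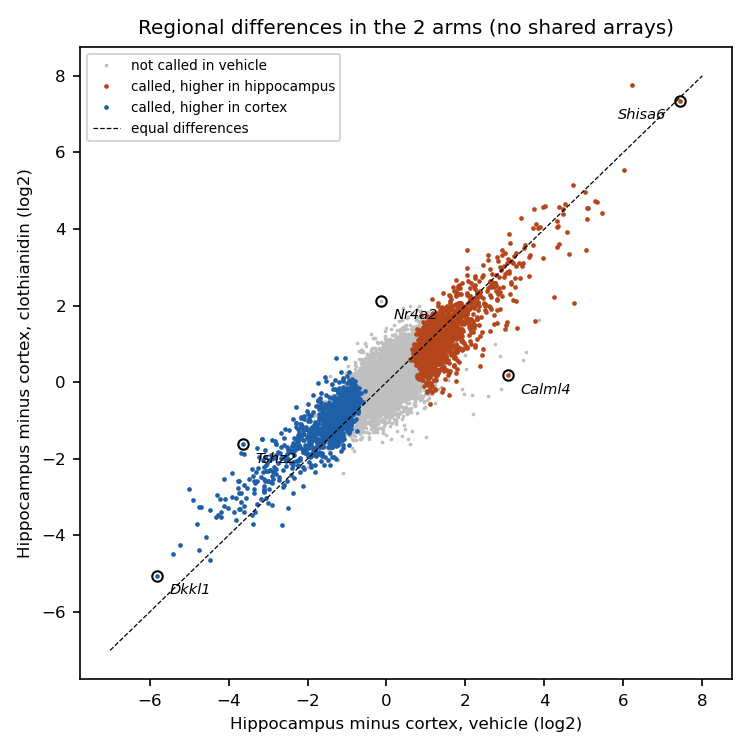
Hippocampus minus cortex (log2) of 13241 probe sets with a gene symbol in vehicle mice (x axis) and in clothianidin-exposed mice (y axis), from arrays that are not shared. Orange and blue points were called higher in hippocampus (1365) or cortex (1024) in vehicle mice, grey points were not called, and the dashed line marks equal differences. Most coloured points lie on the same side of 0 in both arms (2356 of 2389), and Nr4a2 stands apart from the line.

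The gene that differed most was Shisa6, an auxiliary protein of AMPA receptors, at 5.78 and 5.13 in cortex against 13.14 and 12.64 in hippocampus, or 173-fold higher in hippocampus (difference 7.44, SE 0.36, adjusted p = 2.1e-07). Ndst4, which sulfates heparan sulfate, followed at 4.13 and 4.01 in cortex against 10.53 and 10.04 in hippocampus (74.3-fold). Npy2r, the presynaptic neuropeptide Y receptor, was at 5.53 and 5.63 in cortex against 11.68 and 11.49 in hippocampus (64.2-fold). In all 3 the cortical arrays lay more than 5 units below the hippocampal ones. Slc29a4, the plasma membrane monoamine transporter, was 43.7-fold higher, the mineralocorticoid receptor Nr3c2 38.7-fold, the calcium sensor Cabp7 34.3-fold, the chitin-binding receptor Fibcd1 33.7-fold and the growth factor Tgfb2 33.6-fold. The other genes among the 15 largest were the protease inhibitor Spink8 (39.9-fold), the mossy fibre synapse protein C1ql2 (32.3-fold), Prox1 (26.4-fold), the retroviral envelope gene Syna (24.3-fold), the choline transporter-like Slc44a5 (23.9-fold), and Kl and Car12. Kl, the ageing-related protein klotho that choroid plexus makes in quantity, was uneven between the hippocampal arrays (12.53 and 7.38, against 3.87 and 5.91 in cortex), and so was the carbonic anhydrase Car12 (10.57 and 8.32, against 4.50 and 4.92). The part of choroid plexus RNA in both was not tested. Kl differed by 2.49 without hippocampus vehicle 1, and its call was lost without cortex vehicle 1 (4.04, adjusted p = 0.12). The cortical means of Spink8 and Syna lay under 3.937.

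In cortex the largest difference belonged to Dkkl1, a secreted protein related to the Dickkopf Wnt inhibitors, at 10.20 and 10.53 in cortex against 4.15 and 4.98 in hippocampus, or 55.7-fold higher in cortex (difference -5.80, SE 0.44, adjusted p = 4.7e-06). Cbln2, a secreted cerebellin that joins neurexins to postsynaptic receptors, stood at 10.86 and 10.76 in cortex against 5.63 and 5.19 in hippocampus (42.2-fold). Lamp5, a membrane protein of upper-layer neurons and of a class of interneurons, stood at 15.16 and 14.80 in cortex against 10.07 and 9.41 in hippocampus (37.8-fold). Again no array of one tissue reached the range of the other. Ccn2, a matrix protein of layer 6b neurons, was 32-fold higher, the cholecystokinin receptor Cckbr 29.7-fold, the active zone protein Rims3 27.7-fold, the plasma membrane SNARE Stx1a 26.8-fold, the secreted olfactomedin Olfm2 26.2-fold and the potassium channel Kcnh5 23.5-fold. The transcription factor Mef2c, needed for synapse number and maturation, was bright in both tissues (17.53 and 17.40 in cortex against 13.13 and 13.17 in hippocampus) and differed 19.9-fold. The 15 were completed by the actin nucleator Cobl (19.1-fold), the calcium-binding Necab3 (18.5-fold), the palmitoyltransferase Zdhhc22 (18.2-fold) and the activity-regulated genes Dusp1 (26.8-fold) and Egr2 (21.9-fold), which differed between the cortical arrays and are described with the immediate early genes.

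**Figure D2:**
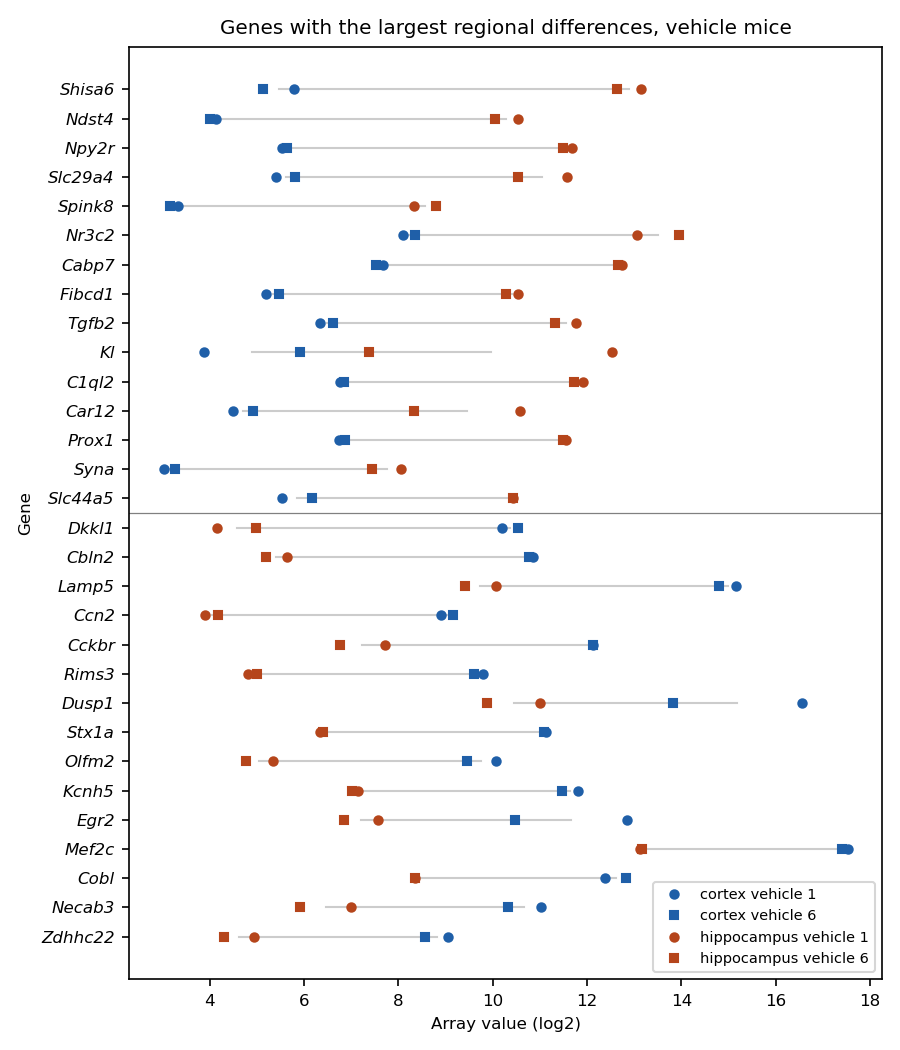
Array values (log2) of the 15 genes with the largest difference in each direction, hippocampus above the line and cortex below it; circles are arrays 1 and squares arrays 6 of vehicle cortex (blue) and vehicle hippocampus (orange), and grey lines join the group means. Tissues do not overlap for any of the 30; Kl in hippocampus and Dusp1 and Egr2 in cortex differ most between the arrays of 1 tissue.

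Among the brightest genes called, differences were small. Camk2a, the alpha subunit of calcium/calmodulin-dependent kinase II, was 1.52-fold higher in hippocampus (19.15 and 19.09 in cortex against 19.62 and 19.83 in hippocampus) and its partner Camk2b 1.81-fold (18.17 and 18.34 in cortex against 19.00 and 19.22 in hippocampus). The calcineurin catalytic subunit Ppp3ca was 1.94-fold higher and beta-actin, Actb, 1.51-fold, while the SNARE protein Snap25 was 1.46-fold higher in cortex. Each lost its call when single arrays were left out: Camk2a without cortex vehicle 1 or 6 or hippocampus vehicle 6 (0.50 to 0.64, adjusted p = 0.14 to 0.18). The call of Camk2b was lost without cortex vehicle 1 (0.77, adjusted p = 0.072). The call of Ppp3ca was lost without cortex vehicle 6 (0.82, adjusted p = 0.082). The call of Actb was lost without cortex vehicle 1 or 6 or hippocampus vehicle 6 (0.46 to 0.64, adjusted p = 0.12 to 0.19). The call of Snap25 was lost without any 1 of the 8 arrays (-0.66 to -0.45, adjusted p = 0.05 to 0.27). Gapdh, a glycolytic enzyme used as a reference gene, differed by -0.28 (SE 0.18, adjusted p = 0.32), with a 95% interval of -0.67 to 0.11.

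Markers of the hippocampal subfields were mostly higher in hippocampus, and by very different amounts. Of 10 tested dentate granule cell markers 6 were higher in hippocampus and 2 in cortex (median difference 1.60, beside 0.10 over all genes). With a stricter filter that dropped the dimmest 50% of probe sets, 3 and 2 of 7 were called (median 0.23). C1ql2 stood at 6.76 and 6.85 in cortex against 11.91 and 11.73 in hippocampus and the desmosomal protein Dsp, a granule cell marker, at 2.99 and 2.91 in cortex against 7.44 and 7.07 in hippocampus (difference 4.31, SE 0.30, adjusted p = 2.4e-06). Lct, the gene of lactase, differed by 3.96 (SE 0.30, adjusted p = 4.7e-06) and the cation channel Trpc6 by 1.83 (SE 0.34, adjusted p = 0.0029). The zinc finger gene Glis3 differed by 1.37 (SE 0.30), a call lost without cortex vehicle 6 (1.15, adjusted p = 0.082). Npnt, an extracellular matrix ligand of integrins, and the PDZ protein Pdzd2 went the other way at -1.38 and -1.25, the call of Pdzd2 lost without cortex vehicle 1 or hippocampus vehicle 6 (-1.06 to -1.03, adjusted p = 0.079 to 0.12). The cortical levels of Dsp and Lct were not shown to be above background. The kinase Plk5 (0.23, SE 0.28) and the syntaxin-binding Stxbp6 (0.19, SE 0.24) were not called.

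CA1 markers had the highest median of the subfield lists, 2.63, with 5 of 7 higher in hippocampus. Fibcd1 was at 5.20 and 5.47 in cortex against 10.53 and 10.29 in hippocampus, Spink8 at 3.32 and 3.16 in cortex against 8.32 and 8.80 in hippocampus and Gpr161, a receptor of the primary cilium, at 5.31 and 5.80 in cortex against 9.15 and 8.48 in hippocampus. The tissues were far apart in all 3, in the last by 3.26 (SE 0.35, adjusted p = 6.4e-05). The mannosidase Man1a (2.63, SE 0.34) and Wfs1, the endoplasmic reticulum protein wolframin (1.99, SE 0.33), were also higher in hippocampus, both over cortical levels of 8 to 9. Mpped1, a phosphodiesterase-like gene, was slightly higher in cortex (-0.71, SE 0.21, adjusted p = 0.035), a call lost without any 1 of the vehicle arrays (-0.74 to -0.68, adjusted p = 0.091 to 0.15).

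Of 7 CA2 markers 3 were higher in hippocampus and 2 in cortex (median 1.02). The median was 0.51 without hippocampus vehicle 6, and -0.02 under the same stricter filter, where 2 of 4 were called in each direction. Amigo2, an adhesion protein that marks CA2, was 10.8-fold higher in hippocampus (difference 3.43, SE 0.30, adjusted p = 1.4e-05), where it was at 7.08 and 7.19. The calcium-binding Necab2 was at 5.17 and 5.50 in cortex against 8.45 and 8.21 in hippocampus (3.00, SE 0.32, adjusted p = 5.8e-05, and 1.39 in exposed mice). Rgs14, which limits plasticity in CA2, differed by 1.29 (SE 0.27, adjusted p = 0.0055), lost without cortex vehicle 6 (1.21, adjusted p = 0.055). The calmodulin regulator Pcp4 is used as a CA2 marker within the hippocampus, yet it was 4.14-fold higher in cortex (15.67 and 15.30 in cortex against 13.90 and 12.97 in hippocampus, adjusted p = 0.001), and the tyrosine phosphatase Ptpn5 was 2.53-fold higher there.

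CA3 markers showed 4 of 7 higher in hippocampus and 1 in cortex (median 1.27). Cpne4, a copine, stood at 8.71 and 8.60 in cortex against 12.17 and 12.19 in hippocampus and the neuronal pentraxin Nptx1, which clusters AMPA receptors, at 10.01 and 10.09 in cortex against 12.08 and 12.33 in hippocampus. The kainate receptor subunit Grik4, which acts at mossy fibre synapses, stood at 6.18 and 6.11 in cortex against 8.17 and 8.21 in hippocampus (difference 2.05, SE 0.31, adjusted p = 0.00078). All 3 separated the tissues by about the same amount in exposed mice (3.57, 1.96 and 2.33). Iyd, the thyroid enzyme that recovers iodide, differed by 1.27 (SE 0.31, adjusted p = 0.015), lost without cortex vehicle 1 or 6 or hippocampus vehicle 6 (1.19 to 1.36, adjusted p = 0.052 to 0.1). Coch, cochlin, was 4.36-fold higher in cortex. Of 4 tested mossy cell markers the calcium-binding Calb2 (calretinin) stood at 6.31 and 6.59 in cortex against 9.37 and 9.88 in hippocampus (3.18, SE 0.29, adjusted p = 1.9e-05), and Glipr1 differed by 1.18 (SE 0.37, adjusted p = 0.044), lost without cortex vehicle 6, cortex clothianidin 3 or 6 or hippocampus vehicle 1 or 6 (0.79 to 1.35, adjusted p = 0.056 to 0.31).

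Markers of cortical layers were mostly higher in cortex, with the lowest median among the layer lists in layer 6. All 6 tested layer 6 markers had a lower mean in hippocampus and 5 were called, with a median of -3.15. Foxp2, a forkhead transcription factor, was at 6.86 and 5.95 in cortex against 2.32 and 2.65 in hippocampus, Syt6, a synaptotagmin, at 7.14 and 7.27 in cortex against 4.22 and 3.47 in hippocampus and the neurotensin receptor Ntsr1 at 5.83 and 5.66 in cortex against 2.80 and 2.66 in hippocampus. Hippocampal values of Foxp2 and Ntsr1 were under the limit of 3.937, so the size of their differences (-3.92 and -3.02) is set by a level not shown to be above background. Tbr1 was 9.82-fold higher in cortex and the corepressor Tle4 2.17-fold, the latter lost without cortex vehicle 6 (-1.07, adjusted p = 0.061). Rprm, a cell cycle gene used as a layer 6 marker, was not called (-0.43, SE 0.33).

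Of 5 layer 6b markers 3 were higher in cortex (median -1.71): Ccn2 at 8.91 and 9.16 in cortex against 3.90 and 4.17 in hippocampus (32-fold, SE of the log2 difference 0.63, adjusted p = 0.00022), the neurexophilin Nxph4 (-1.71, SE 0.36, adjusted p = 0.0067) and the complexin Cplx3 (-2.17, SE 0.47, adjusted p = 0.0078). Ccn2 differed less in exposed mice (-2.80), where the hippocampal arrays were uneven, at 7.63 in clothianidin 3 and 4.85 in clothianidin 6. The calls of the other 2 were lost for Nxph4 without cortex vehicle 1 or hippocampus vehicle 6 (-1.56 to -1.37, adjusted p = 0.05 to 0.068). The call of Cplx3 was lost without cortex vehicle 6 or hippocampus vehicle 1 (-2.01 to -1.58, adjusted p = 0.05 to 0.071). Layer 5 markers went both ways. The mTOR inhibitor Deptor (-2.83, SE 0.46, adjusted p = 0.0013) and the retinol carrier Rbp4 (-2.24, SE 0.37, adjusted p = 0.0013) were higher in cortex, as was Parm1 (-0.87, SE 0.24; lost without cortex vehicle 1 or 6 or hippocampus vehicle 6 (-0.89 to -0.75, adjusted p = 0.12 to 0.13)). Bcl11b (Ctip2), which specifies corticospinal neurons and is also expressed in hippocampal neurons, was at 7.25 and 7.23 in cortex against 10.28 and 10.44 in hippocampus, 8.69-fold higher in hippocampus, and the repressor Bcl6 was 3.36-fold higher there. Fezf2, the selector gene of subcortically projecting neurons, was not called (-0.57, SE 0.25, 95% interval -1.12 to -0.03).

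Of 6 layer 2/3 markers 4 were higher in cortex and 1 in hippocampus (median -1.49). The homeobox gene Cux2 was at 8.86 and 8.88 in cortex against 5.23 and 5.05 in hippocampus (13.3-fold, adjusted p = 5.4e-06). Its relative Cux1 was at 10.32 and 10.04 in cortex against 8.70 and 8.34 in hippocampus (3.16-fold). Lamp5 has been described above, and the exchange factor Rasgrf2 differed by -1.32 (SE 0.25, adjusted p = 0.0037), lost without cortex vehicle 1 (-1.16, adjusted p = 0.052). Mdga1, an adhesion protein that blocks neuroligins, was 6.92-fold higher in hippocampus at 4.75 and 3.72 in cortex against 6.98 and 7.07 in hippocampus, against its place in this list. Both layer 4 genes that were called, the nuclear receptor Rorb (-1.29, SE 0.37, adjusted p = 0.033) and the sodium channel subunit Scnn1a (-1.14, SE 0.33, adjusted p = 0.032), depended on single arrays: Rorb without cortex vehicle 1 or hippocampus vehicle 1 or 6 (-1.37 to -0.67, adjusted p = 0.069 to 0.3). The call of Scnn1a was lost without any 1 of the vehicle arrays (-1.38 to -0.92, adjusted p = 0.055 to 0.21). The Wnt agonist Rspo1 (-0.70, SE 0.30) and the scaffold protein Whrn (-0.39, SE 0.33) were not called.

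**Figure D3:**
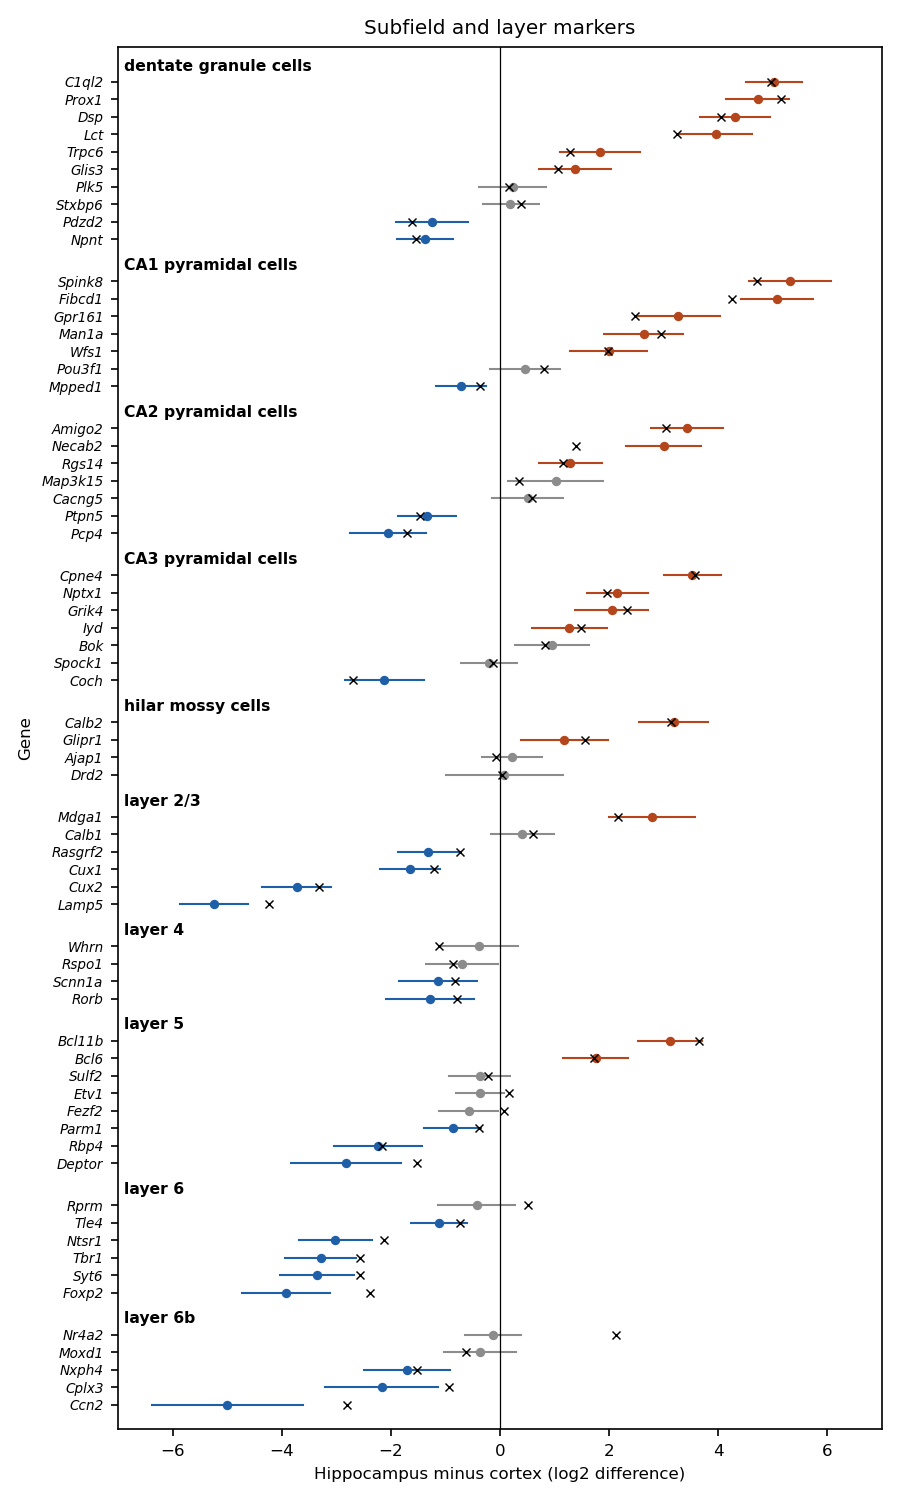
Hippocampus minus cortex (log2) of tested markers of hippocampal subfields and cortical layers. Dots with 95% intervals are vehicle mice, in orange or blue where called higher in hippocampus or cortex and in grey where not called; crosses are exposed mice. The subfield markers lie mainly right of 0 and the layer 6 markers left of it, with Pcp4, Coch, Npnt and Pdzd2 among the exceptions on one side and Bcl11b, Bcl6 and Mdga1 on the other.

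Transcription factors separated the tissues in both directions within every family examined. Of 23 tested homeobox genes 4 were higher in hippocampus and 7 in cortex (median -0.27). Lhx9, a LIM-homeobox gene of early forebrain development, was at 2.51 and 2.96 in cortex against 7.45 and 6.66 in hippocampus, 20-fold higher in hippocampus (adjusted p = 1.1e-05), and beside Prox1 the group held Zfhx4 (1.80, SE 0.30) and Emx2, which is required for the dentate gyrus to form (1.59, SE 0.28). On the cortical side, beside Cux1 and Cux2, stood the TALE gene Meis2 (-1.48, SE 0.24), the chromatin organizer Satb1 (-1.64, SE 0.27) and the interneuron gene Dlx1 (-1.49, SE 0.28). The cortical mean of Lhx9 lay under the limit of 3.937.

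Of 9 basic helix-loop-helix and Id genes 3 were higher in hippocampus and 2 in cortex. Neurod6, a factor of pyramidal neurons, was at 12.63 and 12.65 in cortex against 14.84 and 15.01 in hippocampus (difference 2.29, SE 0.22, adjusted p = 2.5e-05). Neurod2 was at 7.20 and 7.48 in cortex against 8.96 and 9.19 in hippocampus (1.73, SE 0.26, adjusted p = 0.00072). Id2, an inhibitor of such factors, was the other way at 14.85 and 14.81 in cortex against 13.20 and 12.90 in hippocampus (-1.78, SE 0.22, adjusted p = 0.00021). The pair of neurogenic factors was thus higher in hippocampus by 3.33- to 4.87-fold. Id4 (1.04, SE 0.25) and the clock-linked repressor Bhlhe40 (-1.21, SE 0.23) lost their calls in single omissions: Id4 without cortex vehicle 1 or 6 or hippocampus vehicle 6 (0.88 to 1.11, adjusted p = 0.065 to 0.11). The call of Bhlhe40 was lost without cortex vehicle 6 (-0.97, adjusted p = 0.061). Without cortex vehicle 6 the list counted 2 and 1.

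Of 15 zinc finger genes 5 were higher in hippocampus and 4 in cortex. Prdm8, a repressor in axonal connection, was at 11.52 and 10.16 in cortex against 13.97 and 13.28 in hippocampus (difference 2.79, SE 0.42, adjusted p = 0.00071). Zbtb18 was at 13.45 and 13.31 in cortex against 14.83 and 15.10 in hippocampus (1.59, SE 0.26, adjusted p = 0.0012). The 3 teashirt genes were higher in cortex, Tshz2 most, at 11.67 and 12.18 in cortex against 8.33 and 8.24 in hippocampus (12.5-fold). Tshz2 differed by -1.62 in exposed mice, without passing the test between arms (adjusted p = 1). Tshz3 (-2.21, SE 0.36) and Klf5 (-2.09, SE 0.31) kept their calls in every omission, and Tshz1 (-1.19, SE 0.36) lost it without cortex vehicle 1 or 6, cortex clothianidin 3 or 6, hippocampus vehicle 6 or hippocampus clothianidin 3 (-1.33 to -0.62, adjusted p = 0.05 to 0.27).

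Of 23 other DNA-binding genes 7 were higher in hippocampus and 8 in cortex (5 and 5 without cortex vehicle 1, 6 and 5 without hippocampus vehicle 1). Lmo3, a LIM-only cofactor, was at 13.87 and 13.34 in cortex against 16.21 and 16.16 in hippocampus (difference 2.58, SE 0.23, adjusted p = 1.6e-05). Foxo1, the insulin-regulated forkhead factor, was at 4.67 and 5.06 in cortex against 7.65 and 7.83 in hippocampus (2.88, SE 0.28, adjusted p = 3e-05). Nr2f2 (COUP-TFII), a nuclear receptor of caudal interneurons, was at 7.73 and 7.01 in cortex against 10.42 and 9.94 in hippocampus (2.81, SE 0.31, adjusted p = 7.6e-05). These 3 were 5.98- to 7.34-fold higher in hippocampus, and Nfib (1.37, SE 0.21) and Mef2a (1.02, SE 0.20) less so. The Mef2 family was split, since Mef2c was 19.9-fold and Mef2a 2.03-fold apart in opposite directions. Cortex was higher for the nuclear receptor Rora (11.38 and 11.09 in cortex against 8.93 and 8.38 in hippocampus, 5.98-fold) and the ETS factor Etv5 (15.36 and 15.76 in cortex against 13.73 and 13.99 in hippocampus, 3.25-fold), beside Tbr1 and Foxp2. The probe sets of Rora disagreed, at -2.58 (the one used), -2.36 and 0.01 (adjusted p = 0.99).

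Subunits of the same glutamate receptor often differed in opposite directions. Gria1, the AMPA receptor subunit most tied to long-term potentiation, was at 14.26 and 14.41 in cortex against 17.60 and 17.61 in hippocampus, 9.65-fold higher in hippocampus (difference 3.27, SE 0.23, adjusted p = 3e-06). Gria4 was at 10.50 and 10.26 in cortex against 9.22 and 8.86 in hippocampus, 2.53-fold higher in cortex, while Gria2 (0.52, SE 0.25) and Gria3 (-0.52, SE 0.24) were not called. Among kainate subunits Grik4 (4.13-fold) was higher in hippocampus and Grik3 (8.29 and 8.05 in cortex against 6.73 and 6.26 in hippocampus, 3.19-fold) in cortex. Grik2 differed by 1.23 (SE 0.29, adjusted p = 0.012), lost without cortex vehicle 1 or hippocampus vehicle 6 (0.83 to 1.01, adjusted p = 0.076 to 0.14). Grin2a was the 1 of 5 tested NMDA subunits that was called, at 12.10 and 11.70 in cortex against 13.39 and 13.19 in hippocampus (1.39, SE 0.28, adjusted p = 0.0051), lost without cortex vehicle 6 (1.19, adjusted p = 0.065). Grin2b differed by 0.31 (SE 0.30) with a 95% interval of -0.34 to 0.96, and the delta receptor Grid1 by 0.30 (SE 0.35), both not called.

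Of 6 metabotropic receptors Grm5, coupled to calcium release, was at 10.21 and 10.19 in cortex against 12.19 and 11.85 in hippocampus, 3.53-fold higher in hippocampus. Grm3, an inhibitory receptor of neurons and astrocytes, was at 12.66 and 12.76 in cortex against 11.19 and 11.05 in hippocampus, 3.01-fold higher in cortex, and Grm4 differed by -1.77 (SE 0.40, adjusted p = 0.0092), lost without cortex vehicle 6 or hippocampus vehicle 1 (-1.35 to -1.34, adjusted p = 0.058 to 0.11). The vesicular glutamate transporter Slc17a7 (VGLUT1) did not pass the test (17.99 and 17.96 in cortex against 17.86 and 17.68 in hippocampus, 95% interval of the difference -0.58 to 0.17). Slc17a6 (VGLUT2), typical of thalamic and some cortical neurons, was at 9.99 and 10.05 in cortex against 7.23 and 7.49 in hippocampus, 6.32-fold higher in cortex.

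Of 10 GABA-A receptor subunits 3 were higher in hippocampus and 4 in cortex. Gabra5, the extrasynaptic subunit of hippocampal tonic inhibition, was at 13.72 and 13.83 in cortex against 16.90 and 16.65 in hippocampus (difference 3.00, SE 0.21, adjusted p = 2.3e-06). Gabrb1 was at 9.58 and 9.37 in cortex against 11.33 and 11.57 in hippocampus (1.97, SE 0.25, adjusted p = 0.00019). Gabra2 was at 10.57 and 10.16 in cortex against 11.57 and 12.04 in hippocampus (1.44, SE 0.28, adjusted p = 0.004). On the cortical side Gabrd, the delta subunit of tonic receptors, was at 7.75 and 7.47 in cortex against 5.33 and 4.43 in hippocampus (-2.73, SE 0.33, adjusted p = 0.00016). Gabra3 was at 12.83 and 11.96 in cortex against 9.71 and 10.03 in hippocampus (-2.52, SE 0.31, adjusted p = 0.00016). The delta subunit is known from dentate granule cells too, but here its hippocampal arrays were the lower ones. Gabrg3 (-1.05, SE 0.27) and Gabrb2 (-0.87, SE 0.23) were also higher in cortex. They and Gabra2 lost their calls in single omissions: Gabra2 without cortex vehicle 6 (1.23, adjusted p = 0.056). The call of Gabrg3 was lost without cortex vehicle 1 or 6 or hippocampus vehicle 6 (-1.13 to -0.96, adjusted p = 0.064 to 0.12). The call of Gabrb2 was lost without any 1 of the vehicle arrays (-0.91 to -0.82, adjusted p = 0.054 to 0.12). Without cortex vehicle 6, 2 subunits were called in each direction, and without cortex vehicle 1 or hippocampus vehicle 6 the counts were 3 and 2. Of the 2 GABA-B subunits 0 were called by limma, and 0 had an unadjusted p under 0.05 (Gabbr1 -0.33, SE 0.19, Gabbr2 -0.42, SE 0.28).

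Of 5 muscarinic receptors Chrm5 (2.85 and 3.31 in cortex against 5.84 and 6.11 in hippocampus, 7.44-fold) and Chrm1 (12.38 and 12.30 in cortex against 13.43 and 13.75 in hippocampus, 2.38-fold), both coupled to phospholipase C, were higher in hippocampus. Chrm4, coupled to inhibition of adenylyl cyclase, differed by -1.64 (SE 0.33, adjusted p = 0.0045), lost without cortex vehicle 1 (-1.50, adjusted p = 0.053). The nicotinic receptors, the class that clothianidin acts on, were split as well: Chrna4, part of the main high-affinity brain receptor, was at 12.18 and 12.13 in cortex against 9.74 and 9.38 in hippocampus, 6.04-fold higher in cortex. Chrna7, the homomeric alpha7 subunit, was at 8.47 and 7.89 in cortex against 10.42 and 9.43 in hippocampus (1.75, SE 0.34, adjusted p = 0.0039, lost without cortex vehicle 6 (1.45, adjusted p = 0.055)). The accessory Chrna5 was at 4.05 and 3.83 in cortex against 5.73 and 5.64 in hippocampus (1.75, SE 0.29, adjusted p = 0.0014). Chrnb2 was not called (0.80, SE 0.31). The cortical mean of Chrm5 lay under the limit of 3.937.

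Serotonin receptors had a median difference of 1.04, with 4 of 9 higher in hippocampus and 1 in cortex (3 and 0 without cortex vehicle 6). Without hippocampus vehicle 1 the median was 0.40. Htr4, which raises cAMP, was at 5.63 and 5.72 in cortex against 8.85 and 9.44 in hippocampus (difference 3.47, SE 0.30, adjusted p = 1.1e-05). Htr1a, the inhibitory receptor of pyramidal cells, was at 5.87 and 6.56 in cortex against 9.66 and 9.20 in hippocampus (3.21, SE 0.31, adjusted p = 3e-05). Htr5b was at 5.24 and 4.81 in cortex against 7.24 and 6.88 in hippocampus (2.04, SE 0.33, adjusted p = 0.0013). All 3 were 4.1- to 11.1-fold higher in hippocampus. Htr3a, the serotonin-gated channel of interneurons (1.04, SE 0.32), and Htr5a, higher in cortex (-1.38, SE 0.27), lost their calls: Htr3a without cortex vehicle 1 or 6, cortex clothianidin 3 or 6 or hippocampus vehicle 1 (0.70 to 1.08, adjusted p = 0.055 to 0.21). The call of Htr5a was lost without cortex vehicle 6 (-1.24, adjusted p = 0.052). Htr2a, the receptor of hallucinogens, was not called (-0.17, SE 0.27, 95% interval -0.75 to 0.42).

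The dopamine receptor Drd5 was at 5.01 and 5.28 in cortex against 8.01 and 8.24 in hippocampus, 7.89-fold higher in hippocampus. Drd1 (-1.25, SE 0.50), Drd2 (0.08, SE 0.49) and Drd4 (0.40, SE 0.33) did not pass the test. The adrenergic receptor Adra1b was at 7.69 and 7.81 in cortex against 3.93 and 4.18 in hippocampus, 13-fold higher in cortex, and Adra2c differed by 1.46 (SE 0.31, adjusted p = 0.0067) the other way, lost without cortex vehicle 6 (1.39, adjusted p = 0.058). All 3 histamine receptors were higher in cortex: Hrh3, the presynaptic receptor, at 12.70 and 12.56 in cortex against 10.95 and 10.89 in hippocampus (3.27-fold), Hrh2 at 6.14 and 5.94 in cortex against 4.26 and 4.41 in hippocampus (3.26-fold) and Hrh1 by -1.55 (SE 0.34), a call lost without cortex vehicle 6 or hippocampus vehicle 1 (-1.36 to -1.17, adjusted p = 0.059 to 0.083). The histamine receptors were thus all called higher in cortex, while serotonin receptors were called in both directions (4 and 1). Of 4 dopamine receptors only 1 was called, higher in hippocampus.

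**Figure D4:**
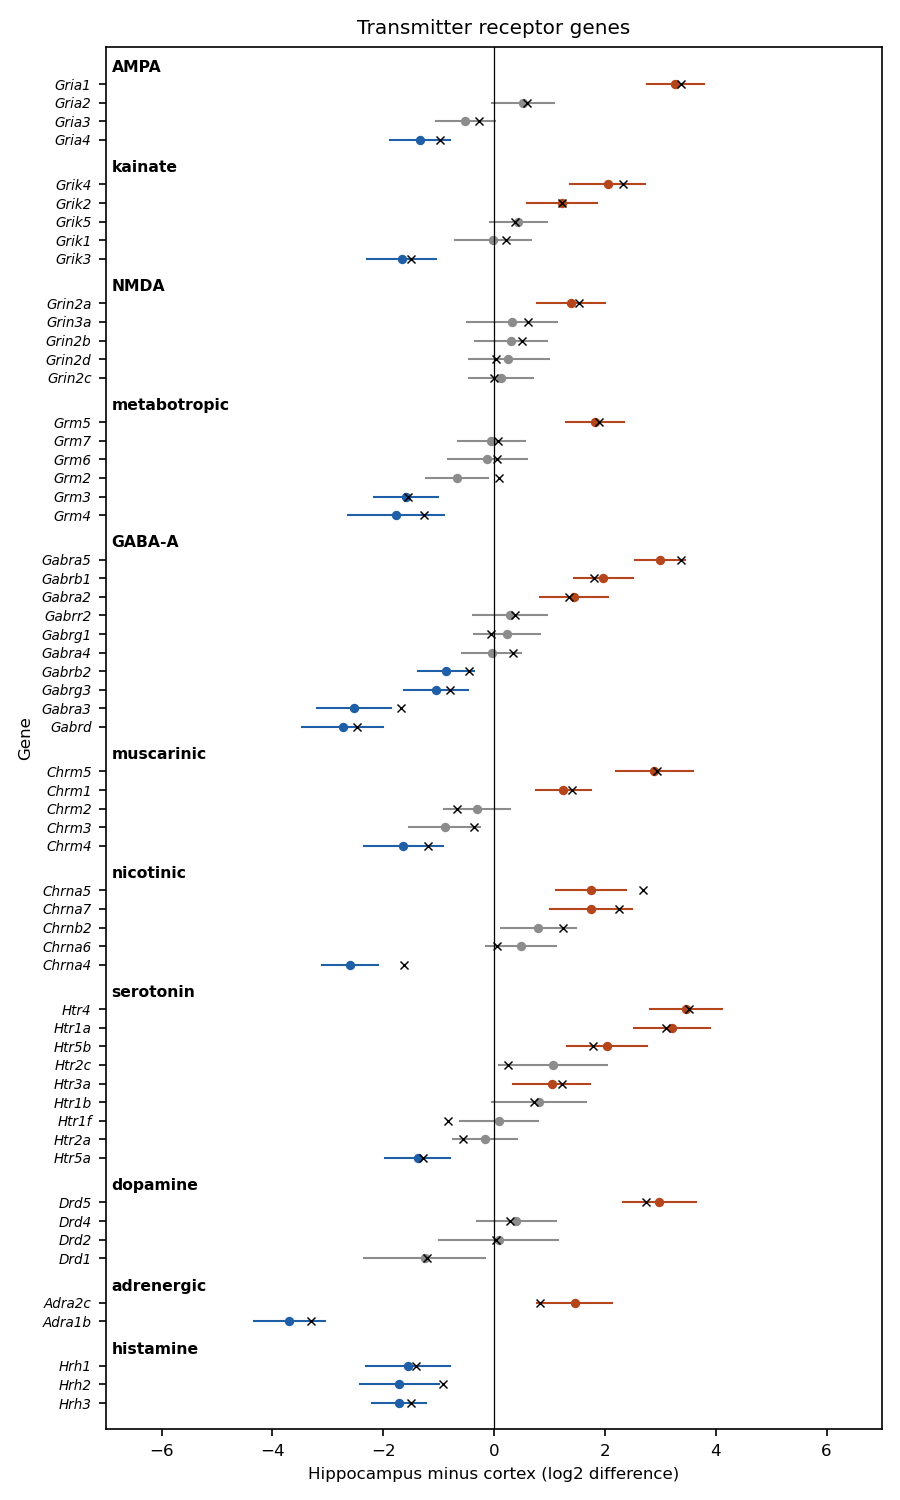
Hippocampus minus cortex (log2) of transmitter receptor genes by class. Dots with 95% intervals are vehicle mice (orange, called higher in hippocampus; blue, called higher in cortex; grey, not called), and crosses are exposed mice. Most classes have members on both sides of 0, such as Gria1 and Gria4 or Gabra5 and Gabrd, while the 3 histamine receptors all lie left of it.

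The mineralocorticoid receptor Nr3c2, which binds corticosterone with high affinity, was at 8.09 and 8.36 in cortex against 13.05 and 13.95 in hippocampus (difference 5.28, SE 0.34, adjusted p = 1.3e-06). The glucocorticoid receptor Nr3c1 overlapped between tissues (8.32 and 7.92 in cortex against 7.58 and 7.96 in hippocampus) and was not called. The receptor cochaperone Fkbp5, itself listed as a glucocorticoid target, was 5.1-fold higher in hippocampus (9.11 and 9.79 in cortex against 11.97 and 11.63 in hippocampus). Of 7 tested corticosteroid receptors and targets 2 were higher in hippocampus and 2 in cortex (median 0.40). Among genes that glucocorticoids induce, the clock gene Per1 (-1.62, SE 0.32) and Tsc22d3 (GILZ; -1.20, SE 0.35) were higher in cortex, with calls lost for Per1 without cortex vehicle 6 (-1.19, adjusted p = 0.061). The call of Tsc22d3 was lost without cortex vehicle 1 or 6 or hippocampus vehicle 1 (-1.51 to -0.84, adjusted p = 0.058 to 0.25). The stress peptide Crh was at 6.80 and 6.28 in cortex against 4.35 and 4.30 in hippocampus, 4.64-fold higher in cortex, and its receptor Crhr1 differed by -1.34 (SE 0.38, adjusted p = 0.03), lost without cortex vehicle 1 or 6 or hippocampus vehicle 1 (adjusted p = 0.12 to 0.14). The thyroid hormone receptor Thrb was 3.9-fold higher in cortex (11.09 and 10.78 in cortex against 9.15 and 8.79 in hippocampus), and the progesterone receptor Pgr differed by -1.43 (SE 0.33, adjusted p = 0.011), lost without cortex vehicle 1 or hippocampus vehicle 6 (-1.19 to -1.16, adjusted p = 0.071 to 0.11).

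Neuropeptide precursors were more often higher in cortex, 8 of 15, than in hippocampus, 2 of 15 (median -1.21); 5 and 1 were called without cortex vehicle 1 and likewise without cortex vehicle 6, 5 and 2 without hippocampus vehicle 6 and 8 and 1 without hippocampus vehicle 1. Vip, of disinhibitory interneurons, was at 8.91 and 9.35 in cortex against 6.98 and 6.18 in hippocampus (difference -2.55, SE 0.35, adjusted p = 0.0004). Npy was at 11.18 and 10.94 in cortex against 9.60 and 8.21 in hippocampus (-2.15, SE 0.40, adjusted p = 0.0031). Somatostatin, Sst, was at 16.73 and 16.40 in cortex against 15.44 and 14.07 in hippocampus (-1.81, SE 0.36, adjusted p = 0.0047). In the last 2 hippocampus vehicle 6 was the lower hippocampal array, and the call of Sst was lost without cortex vehicle 1 (-1.65, adjusted p = 0.057). Adcyap1 (PACAP) was 5.21-fold higher in cortex. Nts, neurotensin, was at 4.28 and 4.12 in cortex against 6.06 and 6.43 in hippocampus, 4.13-fold higher in hippocampus, and Grp differed by 1.03 (SE 0.28, adjusted p = 0.023), lost without cortex vehicle 1 or 6 or hippocampus vehicle 1 (0.80 to 1.18, adjusted p = 0.067 to 0.16).

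Some peptides and their receptors were higher in opposite tissues. Npy2r was 64.2-fold higher in hippocampus while Npy itself was 4.45-fold higher in cortex, and Ntsr1 was 8.08-fold higher in cortex while Nts was higher in hippocampus. The cholecystokinin receptor Cckbr was at 12.12 and 12.13 in cortex against 7.71 and 6.76 in hippocampus (difference -4.89, SE 0.48, adjusted p = 3e-05). The somatostatin receptor Sstr2 was at 10.32 and 10.55 in cortex against 7.26 and 7.25 in hippocampus (-3.18, SE 0.31, adjusted p = 3.2e-05). Its peptide Sst was higher in cortex too, so this pair lay on the same side. Trhr2, a receptor of thyrotropin-releasing hormone, was 4.87-fold higher in cortex and its relative Trhr 2.52-fold higher in hippocampus, the latter lost without cortex vehicle 1 or 6 or hippocampus vehicle 6 (0.94 to 1.34, adjusted p = 0.13 to 0.18). Rxfp1, the relaxin receptor, was at 7.99 and 8.18 in cortex against 6.32 and 6.40 in hippocampus (-1.73, SE 0.31, adjusted p = 0.0023) in vehicle mice but differed by -0.03 in exposed mice, where the test between arms gave an adjusted p of 1. In all, 4 of 23 receptors were higher in hippocampus and 5 in cortex; 1 and 5 were called without cortex vehicle 1, without cortex vehicle 6 and without hippocampus vehicle 6, a hippocampal share below that of all genes. The neurokinin receptor Tacr3 and the galanin receptor Galr1, both higher in hippocampus, were lost for Tacr3 without cortex vehicle 1 or 6 or hippocampus vehicle 6 (1.15 to 1.48, adjusted p = 0.055 to 0.12). The call of Galr1 was lost without any 1 of the vehicle arrays (0.99 to 1.04, adjusted p = 0.093 to 0.15).

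Of 3 tested genes of GABA synthesis and transport 0 were called by limma, while 1 higher in hippocampus and 2 in cortex had an unadjusted p under 0.05. Gad1 was at 12.46 and 12.71 in cortex against 12.19 and 11.89 in hippocampus, with a 95% interval of the difference of -1.04 to -0.05. Gad2 was at 10.47 and 10.48 in cortex against 11.15 and 11.16 in hippocampus (0.19 to 1.17). Slc32a1 was at 10.96 and 10.51 in cortex against 10.38 and 9.72 in hippocampus (-1.30 to -0.07). Parvalbumin, Pvalb, of fast-spiking cells, was at 10.37 and 10.42 in cortex against 8.79 and 7.72 in hippocampus (-2.14, SE 0.37, adjusted p = 0.002). Of 16 subclass markers 7 were higher in cortex, among them Lamp5, Vip, Crh, Pvalb and Npy, and 4 in hippocampus. The 4 were Calb2, the neuron-derived factor Ndnf (2.13, SE 0.27), neuronal nitric oxide synthase Nos1 (2.72, SE 0.40) and Htr3a, lost without cortex vehicle 1 or 6, cortex clothianidin 3 or 6 or hippocampus vehicle 1 (0.70 to 1.08, adjusted p = 0.055 to 0.21). Several of these genes are also expressed by principal cells (Lamp5 in upper layers, Calb2 in mossy cells), and which cells carried the difference was not tested.

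All 8 tested secreted synaptic organizers of the cerebellin, C1q-like and pentraxin families were called, divided by family. The C1q-like genes were higher in hippocampus: C1ql2 (32.3-fold), C1ql3 at 12.35 and 12.13 in cortex against 13.83 and 13.95 in hippocampus (3.14-fold) and C1ql1 (1.87-fold). The cerebellins were higher in cortex: Cbln2 (42.2-fold), Cbln1 at 7.96 and 8.74 in cortex against 4.64 and 4.86 in hippocampus (12.1-fold) and Cbln4 (2.54-fold). The pentraxins were split, with Nptx1 4.45-fold higher in hippocampus and the activity-regulated Nptx2 at 8.67 and 8.90 in cortex against 6.74 and 7.02 in hippocampus, 3.75-fold higher in cortex. Calls were lost for C1ql1 without cortex vehicle 1 or 6, hippocampus vehicle 1 or 6 or hippocampus clothianidin 3 or 6 (0.65 to 1.15, adjusted p = 0.055 to 0.28). That of Cbln4 was lost without cortex vehicle 1 (adjusted p = 0.11).

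Of 17 neurexins, neuroligins and leucine-rich organizers 3 were higher in hippocampus and 6 in cortex (2 and 2 without cortex vehicle 1, 1 and 2 without cortex vehicle 6, 2 and 2 without hippocampus vehicle 6, 1 and 5 without hippocampus vehicle 1). Lrrtm3, a neurexin ligand of excitatory synapses, was at 12.70 and 12.33 in cortex against 9.39 and 9.53 in hippocampus (difference -3.05, SE 0.25, adjusted p = 7e-06). Its relative Lrrtm1 was at 8.23 and 8.22 in cortex against 10.48 and 10.12 in hippocampus (2.07, SE 0.30, adjusted p = 0.0006), so the 2 were higher in opposite tissues. Flrt2, which binds latrophilins, was 2.89-fold higher in cortex.

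Isoforms of calcium/calmodulin-dependent kinases also divided the tissues. Of the other subunits of CaM kinase II, Camk2g was at 13.39 and 13.23 in cortex against 11.23 and 11.14 in hippocampus (difference -2.12, SE 0.24, adjusted p = 8.9e-05). Camk2d was at 13.38 and 12.99 in cortex against 11.32 and 11.59 in hippocampus (-1.73, SE 0.26, adjusted p = 0.00065). The nuclear kinase Camk4 was 3.01-fold higher in cortex. In the Homer family of postsynaptic scaffolds Homer3 was at 5.08 and 5.28 in cortex against 8.87 and 9.17 in hippocampus (3.84, SE 0.29, adjusted p = 4.9e-06) and Homer2 3.08-fold higher in hippocampus. Homer1 was the other way at 14.90 and 15.39 in cortex against 13.03 and 14.05 in hippocampus (-1.61, SE 0.31, adjusted p = 0.0036), lost without cortex vehicle 6 (-1.36, adjusted p = 0.054). In all, 8 of 23 kinases, phosphatases and scaffolds were higher in each tissue, with 5 and 4 without cortex vehicle 1, 3 and 5 without cortex vehicle 6 and 4 and 5 without hippocampus vehicle 6. Camk1d, higher in hippocampus, and Camk1, higher in cortex, were lost for Camk1d without cortex vehicle 6 or hippocampus vehicle 6 (0.99 to 1.13, adjusted p = 0.069 to 0.13). The call of Camk1 was lost without cortex vehicle 1 or hippocampus vehicle 1 (-1.31 to -1.18, adjusted p = 0.058 to 0.091).

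Of 15 calcium-binding proteins 4 were higher in hippocampus and 6 in cortex. Cabp7 was at 7.68 and 7.52 in cortex against 12.74 and 12.66 in hippocampus (difference 5.10, SE 0.33, adjusted p = 1.4e-06). Hpca, hippocalcin, the neuronal calcium sensor named for the hippocampus, was at 17.80 and 17.22 in cortex against 19.59 and 19.48 in hippocampus (2.03, SE 0.30, adjusted p = 0.00062). On the cortical side Necab1 was at 13.73 and 14.02 in cortex against 10.45 and 11.23 in hippocampus (-3.04, SE 0.28, adjusted p = 2e-05). The Necab family was divided, with Necab2 7.97-fold higher in hippocampus and Necab1 8.2-fold and Necab3 18.5-fold higher in cortex. Cabp1 was 5.19-fold and the visinin-like Vsnl1 2.86-fold higher in cortex. Vsnl1 stood at 19.44 and 19.15 in cortex against 17.97 and 17.59 in hippocampus.

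Of 13 RGS proteins, which shorten G protein signals, 2 were higher in hippocampus and 7 in cortex, with a median of -0.82. Rgs4 was at 15.81 and 15.70 in cortex against 12.47 and 12.83 in hippocampus (difference -3.10, SE 0.22, adjusted p = 3.2e-06). Rgs6 was at 10.31 and 10.17 in cortex against 6.76 and 7.14 in hippocampus (-3.29, SE 0.26, adjusted p = 6.2e-06). Rgs17 (-2.08, SE 0.31), Rgs2 (-2.16, SE 0.33) and Rgs16 (-1.67, SE 0.33) followed, and these 3 differed less in exposed mice (-0.95, -0.90 and -0.51). Without cortex vehicle 1 the counts were 1 and 5, and without cortex vehicle 6 0 and 5, with the hippocampal pair lost for Rgs14 without cortex vehicle 6 (1.21, adjusted p = 0.055). The call of Rgs8 was lost without cortex vehicle 1 or 6 (1.04 to 1.06, adjusted p = 0.065 to 0.068). Of 7 adenylyl cyclases 1 and of 8 phosphodiesterases 2 were called, all higher in cortex (Adcy8 -1.45, SE 0.29, Pde7b -2.29, SE 0.47, Pde8b -1.07, SE 0.26), and each call was lost in single omissions: Adcy8 without cortex vehicle 6 (-1.28, adjusted p = 0.056). The call of Pde7b was lost without cortex vehicle 1 (-1.95, adjusted p = 0.069). The call of Pde8b was lost without cortex vehicle 1 or 6 or hippocampus vehicle 6 (-1.14 to -1.01, adjusted p = 0.062 to 0.1).

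Potassium channel genes, which set excitability and firing pattern, were more often higher in cortex: 28 of 69 were higher in cortex and 8 in hippocampus, beside 7.73% and 10.3% of all genes (15 and 4 without cortex vehicle 1, 19 and 4 without cortex vehicle 6). Their median difference was -0.39, and -0.29 in exposed mice. Kcnh5 (Eag2) was at 11.80 and 11.47 in cortex against 7.14 and 7.02 in hippocampus (difference -4.56, SE 0.27, adjusted p = 7.9e-07) and its relative Kcnh1 (Eag1) at 10.80 and 10.97 in cortex against 8.85 and 8.11 in hippocampus (-2.41, SE 0.28, adjusted p = 0.00011). The electrically silent subunit Kcnv1 was 4.17-fold, the inward rectifier Kcnj4 3.89-fold and the axonal delayed rectifier Kcna2 4.1-fold higher in cortex. On the hippocampal side the A-type channel partner Kcnip2 was at 12.55 and 11.66 in cortex against 14.46 and 14.21 in hippocampus (2.23, SE 0.33, adjusted p = 0.00062). The small-conductance calcium-activated channel Kcnn2 (3.46-fold), the silent subunit Kcng1 (3.26-fold) and the beta subunit Kcnab2 (2.61-fold) were higher there too.

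Of 8 sodium channel genes 2 were higher in each tissue. The beta subunit Scn3b was at 12.02 and 12.29 in cortex against 15.22 and 15.25 in hippocampus (difference 3.08, SE 0.22, adjusted p = 2.8e-06). Another beta subunit, Scn4b, which gives resurgent current, was at 9.77 and 9.53 in cortex against 7.07 and 6.40 in hippocampus (-2.91, SE 0.30, adjusted p = 4.1e-05). Scn1a, the channel of fast-spiking interneurons whose loss causes Dravet syndrome, was 3.66-fold higher in cortex (12.06 and 11.52 in cortex against 9.51 and 10.33 in hippocampus), and the embryonic-type Scn3a 2.51-fold higher in hippocampus. Of 22 calcium channel genes 3 were higher in hippocampus and 5 in cortex (2 and 3 without cortex vehicle 6). The beta subunit Cacnb4 was at 14.31 and 14.15 in cortex against 11.68 and 11.41 in hippocampus (-2.69, SE 0.24, adjusted p = 1.5e-05). The gamma subunits, several of which are AMPA receptor auxiliary proteins, were divided: Cacng8, the hippocampal TARP, was at 8.50 and 7.96 in cortex against 10.56 and 11.14 in hippocampus, 6.15-fold higher in hippocampus, and Cacng3 at 15.87 and 15.77 in cortex against 13.91 and 13.41 in hippocampus, 4.47-fold higher in cortex. Cacng2 (stargazin) was 2.32-fold higher in cortex and Cacng6 3.94-fold in hippocampus. Of 12 HCN and TRP channels 4 were higher in hippocampus, Trpc4 (4.89-fold), Trpm3 (3.84-fold), Trpc6 (3.54-fold) and Trpc5 (0.86, SE 0.27), and 1 in cortex, Hcn2 (-0.86, SE 0.27). The calls of Trpc5 and Hcn2 were lost in single omissions: Trpc5 without cortex vehicle 1 or 6, hippocampus vehicle 1 or 6 or hippocampus clothianidin 3 or 6 (0.75 to 0.97, adjusted p = 0.056 to 0.23). The call of Hcn2 was lost without cortex vehicle 6, cortex clothianidin 3 or 6, hippocampus vehicle 6 or hippocampus clothianidin 3 or 6 (-0.86 to -0.56, adjusted p = 0.056 to 0.32). The counts were 3 and 0 without cortex vehicle 6.

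Axon guidance genes, which steer growing axons, differed between these adult tissues. Of 14 netrins, Slits and receptors 6 were higher in hippocampus and 0 in cortex (4 and 1 without cortex vehicle 6), with a median of 1.02. The repellent Slit1 was 15-fold higher in hippocampus (difference 3.90, SE 0.29, adjusted p = 3.6e-06), where it was at 12.77 and 13.25. Slit3 was at 7.82 and 8.03 in cortex against 10.24 and 10.35 in hippocampus (2.37, SE 0.31, adjusted p = 0.00027). Their receptor Robo1 was 3.18-fold and the netrin receptor Dcc, at 5.60 and 5.34 in cortex against 7.95 and 7.88 in hippocampus, 5.45-fold higher in hippocampus. Ntng1 differed by 1.19 (SE 0.25, adjusted p = 0.0071), lost without cortex vehicle 6 (1.13, adjusted p = 0.062).

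Of 19 ephrins and Eph receptors 7 were higher in hippocampus and 3 in cortex (5 and 1 without cortex vehicle 1 or hippocampus vehicle 1). The receptors Epha6 (7.97 and 8.26 in cortex against 12.04 and 12.12 in hippocampus, 15.6-fold) and Epha7 (12.61 and 12.25 in cortex against 15.64 and 15.42 in hippocampus, 8.57-fold) were higher in hippocampus. Their ligand Efna5 was at 9.27 and 8.93 in cortex against 5.45 and 6.07 in hippocampus, 10.1-fold higher in cortex. Epha3 (4.77-fold), Epha4 (3.69-fold) and the ligand Efnb3 (4.27-fold) were higher in hippocampus, so that the A-type receptors named here and the A-type ligand Efna5 lay on opposite sides. Of the 19 genes, 9 were not called.

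Of 29 semaphorins, plexins and neuropilins 7 were higher in hippocampus and 6 in cortex (4 and 4 without cortex vehicle 1, 4 and 5 without cortex vehicle 6). Sema5a was at 7.90 and 8.06 in cortex against 11.12 and 11.11 in hippocampus (difference 3.13, SE 0.25, adjusted p = 6.2e-06). The receptor Nrp2 was at 5.63 and 6.25 in cortex against 8.56 and 8.57 in hippocampus (2.63, SE 0.31, adjusted p = 0.00013). Sema3e was at 10.57 and 9.98 in cortex against 12.42 and 12.73 in hippocampus (2.30, SE 0.33, adjusted p = 0.00051). Sema3e and its receptor Plxnd1 were higher in opposite tissues, since Plxnd1 was at 7.68 and 7.68 in cortex against 5.01 and 5.03 in hippocampus (6.32-fold higher in cortex). The repellent Sema3a was at 8.95 and 8.99 in cortex against 5.27 and 4.96 in hippocampus (14.5-fold higher in cortex), and Sema7a (3.06-fold) and Sema4c (3.2-fold) were higher there too. The receptor subunit Plxna1 was 3.23-fold higher in hippocampus.

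Among cell adhesion families, 9 of 10 non-clustered protocadherins were called, 5 higher in hippocampus and 4 in cortex (3 and 3 without cortex vehicle 1, cortex vehicle 6 or hippocampus vehicle 6). Pcdh20 was at 4.97 and 5.06 in cortex against 9.31 and 9.35 in hippocampus (difference 4.32, SE 0.26, adjusted p = 8.6e-07). Pcdh19, the gene of a female-limited epilepsy, was at 7.49 and 7.81 in cortex against 10.16 and 10.39 in hippocampus (2.62, SE 0.36, adjusted p = 0.00042) and Pcdh8 (arcadlin) 4.96-fold higher in hippocampus. Pcdh7 was at 13.14 and 13.13 in cortex against 10.69 and 10.37 in hippocampus (-2.61, SE 0.26, adjusted p = 3.7e-05), and Pcdh11x (7.01-fold) and Pcdh10 (3.75-fold) were higher in cortex as well. Of 19 cadherins 3 were higher in hippocampus and 6 in cortex. Cdh9, which acts at mossy fibre synapses, was at 8.73 and 8.57 in cortex against 11.28 and 11.53 in hippocampus (2.75, SE 0.24, adjusted p = 1.4e-05), while Cdh6 was at 10.52 and 9.77 in cortex against 6.94 and 7.51 in hippocampus (-2.92, SE 0.32, adjusted p = 7.2e-05) and Cdh18, Cdh7, Cdh22 and Cdh12 were 3.03- to 4.86-fold higher in cortex. Without cortex vehicle 1 the cadherins counted 1 and 5. Of 10 contactins and relatives 4 were higher in cortex and 0 in hippocampus, led by Cntn4 (-2.23, SE 0.30), Cntn3 (-1.78, SE 0.24) and Cntn6 (-2.68, SE 0.41).

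Of 26 Wnt pathway genes 3 were higher in hippocampus and 4 in cortex, beside a median of 0.01, and 1 and 1 were called without cortex vehicle 1, 1 and 2 without cortex vehicle 6 and 2 and 2 without hippocampus vehicle 6. Apart from Dkkl1 only Wnt7b, a ligand in dendrite growth (5.84 and 5.71 in cortex against 7.19 and 7.76 in hippocampus, 3.25-fold higher in hippocampus), stayed called in every omission. Of 34 FGF and TGF-beta family genes 9 were higher in hippocampus and 5 in cortex (6 and 3 without cortex vehicle 1, 5 and 4 without cortex vehicle 6). The receptor Fgfr1 was at 5.41 and 4.87 in cortex against 8.08 and 7.49 in hippocampus (difference 2.64, SE 0.35, adjusted p = 0.00032) and the BMP antagonist Grem1, with a cortical mean under 3.937, at 2.93 and 2.83 in cortex against 6.27 and 5.56 in hippocampus (3.03, SE 0.33, adjusted p = 7.3e-05). The intracellular FGF genes, which bind sodium channels, were divided between Fgf13 (3.49-fold higher in hippocampus) and Fgf12 (4.03-fold higher in cortex). Bmp3 was 5.96-fold higher in cortex. Of the ligands named for TGF-beta, which stand outside this list, Tgfb2 differed by 5.07 (SE 0.26) while Tgfb1 (-0.15, SE 0.26) and Tgfb3 (-0.67, SE 0.33) were not called.

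Immediate early genes, which neurons switch on within minutes of activity, were mostly higher in cortex. Of 16 tested transcription factors of this kind 10 were higher in cortex and 2 in hippocampus (median -1.88; -1.16 in exposed mice), and of 10 effectors 5 and 1 (median -1.69; -1.33 in exposed mice). The promoters of genes of this class are known for cAMP response elements, whose core TGACG binds CREB. The windows from 250 bases before to 50 after the start of 4 of them are shown, 5′ to 3′ from RefSeq on build GRCm38.p6, to let the core be seen beside the values; capitals mark TGACG or its reverse complement CGTCA, and in Fos also the TATA box TATAAA.
Dusp1 chr17:26508423-26508722 (minus strand): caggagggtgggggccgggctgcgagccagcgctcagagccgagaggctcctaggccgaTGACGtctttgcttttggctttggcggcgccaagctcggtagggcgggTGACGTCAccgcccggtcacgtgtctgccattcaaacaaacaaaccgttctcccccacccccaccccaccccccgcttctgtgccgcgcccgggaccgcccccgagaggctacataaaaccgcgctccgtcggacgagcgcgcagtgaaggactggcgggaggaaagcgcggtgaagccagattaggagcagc
Fos chr12:85473640-85473939 (plus strand): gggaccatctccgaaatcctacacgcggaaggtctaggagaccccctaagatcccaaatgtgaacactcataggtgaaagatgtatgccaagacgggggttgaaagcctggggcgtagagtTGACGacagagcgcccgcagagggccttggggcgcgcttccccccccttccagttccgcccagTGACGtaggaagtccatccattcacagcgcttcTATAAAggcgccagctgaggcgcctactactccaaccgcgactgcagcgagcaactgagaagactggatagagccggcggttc
Nr4a1 chr15:101266596-101266895 (plus strand): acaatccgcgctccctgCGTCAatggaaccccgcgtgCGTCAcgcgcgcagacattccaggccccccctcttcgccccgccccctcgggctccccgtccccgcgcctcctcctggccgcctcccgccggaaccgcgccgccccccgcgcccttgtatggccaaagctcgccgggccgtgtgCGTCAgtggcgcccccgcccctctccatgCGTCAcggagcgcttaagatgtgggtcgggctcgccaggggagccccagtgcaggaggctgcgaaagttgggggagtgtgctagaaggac
Npas4 chr19:4989922-4990221 (minus strand): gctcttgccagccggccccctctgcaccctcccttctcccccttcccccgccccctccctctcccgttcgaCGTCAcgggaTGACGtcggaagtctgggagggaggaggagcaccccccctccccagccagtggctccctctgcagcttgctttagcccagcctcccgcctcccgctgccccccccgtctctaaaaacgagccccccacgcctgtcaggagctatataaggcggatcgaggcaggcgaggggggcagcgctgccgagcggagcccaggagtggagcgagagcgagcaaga

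The TGACG core, read on both strands, stood in 7 of 10 promoters (70%) of the immediate early genes called higher in cortex, in 6 of 10 (60%) of the other immediate early genes, and in 29.8% of all 10668 tested genes with a promoter in the table. Among genes at least 4-fold higher in cortex it stood in 24.6% (41 of 167) and among those at least 4-fold higher in hippocampus in 14.3% (23 of 161). The core contains the pair CG, whose median count in a window was 20 over all promoters. It was 25.5 in the immediate early genes called higher in cortex and 22.5 in the others. In the 4-fold sets it was 16 for cortex and 15 for hippocampus. The part of base composition in these shares was not tested. The full element TGACGTCA, which holds the core, was found in 3.02% of all promoters, and among the 4 windows shown in Dusp1. The E-box CAGATG of Neurod factors was in 12.1% of all promoters, 13.7% of those higher in hippocampus and 9.58% of those higher in cortex by at least 4-fold. These shares describe letters in a window, and 2530 of 13198 tested genes had no entry. Arc, Egr1, Egr3 and Nptx2 were among these, so the 10 promoters are not all the immediate early genes called higher in cortex.

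Dusp1, the phosphatase that switches off MAP kinases and whose window holds the core at 2 places and on both strands at one of them, was at 16.55 and 13.83 in cortex against 11.01 and 9.88 in hippocampus (difference -4.75, SE 0.65, adjusted p = 0.0004). Fos, the AP-1 subunit, was at 11.51 and 8.67 in cortex against 6.45 and 6.22 in hippocampus (-3.75, SE 0.64, adjusted p = 0.0017). Nr4a1, an orphan nuclear receptor, was at 14.67 and 12.38 in cortex against 10.11 and 9.97 in hippocampus (-3.49, SE 0.52, adjusted p = 0.0007). In these 3, as in Egr2 (12.84 and 10.48 in cortex), cortex vehicle 1 was the highest of the vehicle arrays by 2 units or more, and both hippocampal arrays were lower than either cortical one. Arc, a regulator of AMPA receptor endocytosis, was at 13.00 and 11.68 in cortex against 8.52 and 8.68 in hippocampus (-3.74, SE 0.38, adjusted p = 3.9e-05). Npas4, the activity-dependent factor of inhibitory synapses, was at 10.04 and 6.73 in cortex against 5.45 and 5.50 in hippocampus (-2.91, SE 0.78, adjusted p = 0.023), a call lost without cortex vehicle 1 or hippocampus vehicle 1 or 6 (-2.93 to -1.25, adjusted p = 0.059 to 0.16). Egr1, a zinc finger factor of plasticity, was even within each tissue, at 16.72 and 16.51 in cortex against 13.50 and 13.45 in hippocampus (-3.14, SE 0.22, adjusted p = 2.4e-06). Egr4 differed by -2.28 (SE 0.35) and Egr3 by -1.90 (SE 0.25), though the 3 probe sets of Egr3 gave -2.24, -1.90 and -0.23.

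Both medians were smaller without cortex vehicle 1, at -1.46 for the transcription factors, where 9 were higher in cortex and 1 in hippocampus. The effectors then had -0.85, with 5 and 0. Without cortex vehicle 6, 11 of the factors were higher in cortex and 0 in hippocampus, and without hippocampus vehicle 6 9 and 1. Without either hippocampal vehicle array 5 and 0 effectors were called. Calls were lost for Jund without cortex vehicle 6 (-0.88, adjusted p = 0.091). The call of Homer1 was lost without cortex vehicle 6 (-1.36, adjusted p = 0.054). Not all members were higher in cortex. Jun was at 8.29 and 6.55 in cortex against 9.67 and 9.60 in hippocampus (2.21, SE 0.48, adjusted p = 0.008). Nr4a3 was at 13.59 and 13.60 in cortex against 14.33 and 14.54 in hippocampus (0.84, SE 0.24, adjusted p = 0.031). The cyclooxygenase Ptgs2 was at 7.57 and 8.67 in cortex against 9.35 and 9.14 in hippocampus (1.12, SE 0.34, adjusted p = 0.041). Each was higher in hippocampus and each lost its call in omissions: Jun without cortex vehicle 6 (1.35, adjusted p = 0.08). The call of Nr4a3 was lost without cortex vehicle 1 or 6 or hippocampus vehicle 6 (0.73 to 0.85, adjusted p = 0.13 to 0.14). The call of Ptgs2 was lost without cortex vehicle 1, cortex clothianidin 3 or 6, hippocampus vehicle 1 or 6 or hippocampus clothianidin 3 or 6 (0.58 to 1.23, adjusted p = 0.05 to 0.34). Bdnf, the neurotrophin, overlapped (9.75 and 10.35 in cortex against 10.33 and 10.59 in hippocampus), and the neurotrophin receptors gave 0 calls by limma among 4 tested, with 1 at an unadjusted p under 0.05. The time of killing is not in the labels, and the manner of killing was not used here.

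**Figure D5:**
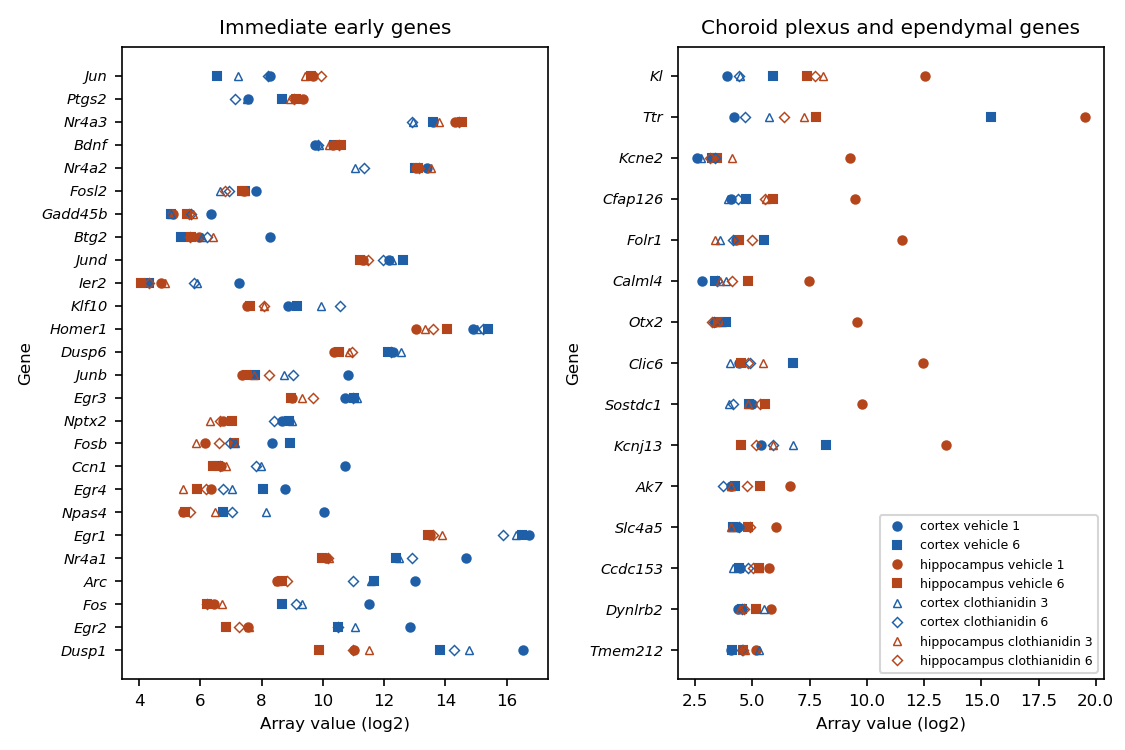
Array values (log2) of immediate early genes (left) and of choroid plexus and ependymal genes (right) on all 8 arrays; blue is cortex and orange hippocampus, filled circles and squares are vehicle arrays 1 and 6, and open triangles and diamonds clothianidin arrays 3 and 6. On the left, cortex vehicle 1 is highest for Dusp1, Fos, Nr4a1, Npas4 and Arc; on the right, hippocampus vehicle 1 stands far above the other arrays for most genes.

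Of 12 astrocyte markers 4 were higher in hippocampus and 1 in cortex (median 0.22). Gfap, the intermediate filament of astrocytes and of dentate stem cells, was at 9.30 and 9.97 in cortex against 12.32 and 12.86 in hippocampus (difference 2.95, SE 0.29, adjusted p = 3.2e-05). Agt, angiotensinogen, was at 6.92 and 6.89 in cortex against 10.27 and 9.83 in hippocampus (3.15, SE 0.53, adjusted p = 0.0016). The gap junction gene Gja1 was at 11.90 and 11.97 in cortex against 13.25 and 13.23 in hippocampus (1.30, SE 0.21, adjusted p = 0.0013) and the water channel Aqp4 2.47-fold higher. Gjb6 differed by -1.16 (SE 0.37), lost without any 1 of the vehicle arrays (-1.36 to -0.96, adjusted p = 0.11 to 0.26). Of 12 oligodendrocyte markers 1, Tspan2 (0.89, SE 0.26), was called, lost without cortex vehicle 1 or 6 or hippocampus vehicle 1 (0.70 to 0.94, adjusted p = 0.12 to 0.15). Of 6 precursor markers the proteoglycan Vcan (1.70, SE 0.28) and C1ql1 (0.90, SE 0.28) were higher in hippocampus, the latter lost without cortex vehicle 1 or 6, hippocampus vehicle 1 or 6 or hippocampus clothianidin 3 or 6 (0.65 to 1.15, adjusted p = 0.055 to 0.28). Of 11 microglial and 8 mural markers 0 were called by limma (3 and 1 had an unadjusted p under 0.05). Of 10 endothelial markers 1, Cdh5 (-1.09, SE 0.30), was called higher in cortex, lost without cortex vehicle 1 or 6 or hippocampus vehicle 6 (-1.28 to -0.75, adjusted p = 0.067 to 0.19).

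Of 6 tested markers of neural stem cells Gfap and Hopx (1.08, SE 0.31) were called, the latter lost without cortex vehicle 1 or 6 or hippocampus vehicle 1 (0.86 to 1.31, adjusted p = 0.062 to 0.2). Of 6 immature neuron markers Prox1, Calb2 and Sox11 (1.25, SE 0.29) were higher in hippocampus and the tubulin Tubb3 (13.99 and 14.45 in cortex against 12.69 and 12.95 in hippocampus, 2.64-fold) in cortex; the call of Sox11 was lost without cortex vehicle 1 or 6 (1.24 to 1.25, adjusted p = 0.068 to 0.071). The proliferation marker Mki67 and the intermediate progenitor factor Eomes were left out as low. Dcx, the doublecortin of migrating neurons, was not called (-0.33, SE 0.26). Ribosomal protein genes were mostly even, with 4 of 58 higher in hippocampus and 1 in cortex (median 0.14, and 1 to 5 with 0 or 1 in omissions of a vehicle array), as were those of respiratory complex I, with 2 of 36 in each direction (median -0.10, and 0 or 1 with 0 to 3 in such omissions). Rpl27 was the ribosomal gene that stayed called in every omission (6.05 and 6.66 in cortex against 8.13 and 8.65 in hippocampus).

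Genes of neighbouring tissue were measured beside these. Of 10 choroid plexus markers all had a higher mean in vehicle hippocampus (median 2.99, and 0.43 in exposed mice), but only Kl and Calml4 (3.08, SE 0.64) were called. Their median value was 10.66 in hippocampus vehicle 1, 4.65 in hippocampus vehicle 6, 5.18 in cortex vehicle 6 and 4.21 in cortex vehicle 1. Both calls were lost without cortex vehicle 1, and without hippocampus vehicle 6 all 10 were called (median 6.51): Kl without cortex vehicle 1 (4.04, adjusted p = 0.12). The call of Calml4 was lost without cortex vehicle 1 (2.80, adjusted p = 0.064). Without hippocampus vehicle 1 their median was 0.22. Of 5 ependymal markers 3 were called, Cfap126 (3.30, SE 0.80), Ak7 (1.84, SE 0.42) and Ccdc153 (1.08, SE 0.32), and each was lost for single arrays: Cfap126 without cortex vehicle 1 or 6 (2.96 to 3.62, adjusted p = 0.056 to 0.11). The call of Ak7 was lost without cortex vehicle 1 or 6 or hippocampus vehicle 1 (1.18 to 1.95, adjusted p = 0.054 to 0.08). The call of Ccdc153 was lost without cortex vehicle 1 or 6 or hippocampus vehicle 1 (0.86 to 1.10, adjusted p = 0.15 to 0.16). Of 9 markers of meninges and fibroblasts Dcn, decorin, was at 7.69 and 7.69 in cortex against 11.95 and 11.94 in hippocampus (4.25, SE 0.48, adjusted p = 8.1e-05), even between the arrays of a tissue. Lum (2.45, SE 0.53) and Col1a1 (1.09, SE 0.31) were also higher in hippocampus, lost for Lum without cortex vehicle 6 (1.73, adjusted p = 0.092). The call of Col1a1 was lost without cortex vehicle 1 or 6 or hippocampus vehicle 6 (0.88 to 1.31, adjusted p = 0.064 to 0.2).

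Of 9 thalamic markers 4 were higher in hippocampus and 2 in cortex (2 and 2 without cortex vehicle 6). The kinase Prkcd was at 5.48 and 5.06 in cortex against 8.30 and 8.24 in hippocampus (difference 3.00, SE 0.32, adjusted p = 5.2e-05), and Calb2 and Ntng1 have been given with mossy cells and netrins. Slc17a6 and Rora, also thalamic markers, were higher in cortex. Of 10 striatal markers the G protein subunit Gng7 was at 9.49 and 9.90 in cortex against 12.42 and 12.28 in hippocampus, 6.3-fold higher in hippocampus, and the enkephalin gene Penk was higher in cortex (-1.63, SE 0.51), highest in cortex vehicle 6 (12.45 and 14.04). These calls of Ntng1 and Penk were lost for Ntng1 without cortex vehicle 6 (1.13, adjusted p = 0.062). The call of Penk was lost without cortex vehicle 6, hippocampus vehicle 6 or hippocampus clothianidin 3 or 6 (-1.63 to -0.84, adjusted p = 0.062 to 0.38). The median value of the striatal markers was 7.56 and 7.84 in cortex and 8.10 and 6.92 in hippocampus. Of the 2 blood genes 0 were called by limma and 1 had an unadjusted p under 0.05 (Slc4a1 0.88, SE 0.31, Alas2 0.54, SE 0.31). Of 3 tested septal and hypothalamic markers 0 were called by limma, and 0 had an unadjusted p under 0.05. Of 3 olfactory and pituitary markers 1 was higher in cortex, the G protein subunit Gng13 (-2.12, SE 0.37). The part of tissue borders in any of these differences was not tested.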

How the data were processed

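RNA of cortex and hippocampus was measured on 8 Affymetrix arrays, 2 per tissue and treatment. The deposited values are log2 intensities from RMA, per the submitters' processing notes, which give no version; RMA corrects background, quantile-normalises and summarises probe sets. The file does not write the log base, and values run from 1.59 to 19.93. Where RMA runs on all arrays at once, an array that stands apart can move the others.

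Platform symbols were matched to RefSeq by Entrez identifier, with 0 unmatched. For the 55 genes with several probe sets, the gene lists and genes fixed by name used the one with the highest mean. Counts over all genes took every tested probe set with a symbol, so some genes enter more than once. The 13241 are thus probe sets, of 13198 genes. The lowest 33.3% of probe sets by mean over all arrays (under 3.937) were left out, and limma 3.58.1 in R 4.3.3 was fitted with 4 group means, a mean-variance trend and 4 residual and 7.918 prior degrees of freedom. P-values were adjusted by Benjamini-Hochberg over 14804 probe sets. The test was checked on simulated data with independent noise in each probe set, so the check does not cover spread shared across genes. Array depth has no count, and the precision is limited by 2 arrays a group. Named genes are the 15 with the largest called difference in each direction, the brightest called, genes fixed by name, and up to 5 called members a direction of each of 76 lists, by smallest p; uncalled list members are named with values only, and genes of the closing section and Tgfb1 and Tgfb3 were picked after their values were seen. The members and lists were chosen with earlier results of these data known. Some genes are not reported here. Alternatives were other filters, normalization, variance models, array weights, blocks and omissions of arrays. Promoters came from RefSeq GRCm38.p6. Figures were drawn with matplotlib.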

Additional observations from a re-analysis of the deposited data

How the results depend on the processing

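With every array, 2389 genes were called, 1365 higher in hippocampus and 1024 in cortex. No filter, the stricter filter, quantile normalization, no variance trend, array weights and the vehicle arrays alone gave 2025 to 2435. The filters, the variance trend and the use of vehicle arrays alone leave each difference unchanged, so no sign could change there. Quantile normalization and array weights can change a difference, and under both all 2389 kept their sign. Quantile normalization called 1140 higher in hippocampus and 1161 in cortex. Leaving out 1 array gave 1178 to 2306 in all, 604 to 1307 higher in hippocampus and 497 to 999 in cortex. Without cortex vehicle 6 and hippocampus vehicle 1, the arrays high in choroid plexus genes, 1047 were called, 494 and 553 by direction, and the median of all genes was 0.04. A test for at least a 2-fold difference called 346, 168 and 178. The replicate block called 3120 and the same block as a random effect 3110, with a consensus correlation of 0.19. Deviations of arrays with equal numbers correlated at r = -0.00 in vehicle mice, or 0.06 without choroid plexus markers, and at 0.28 in exposed mice. With 2 arrays a group this cannot tell whether equal numbers mark the same animal, and the labels do not say. The main fit did not treat the numbers as pairs. Of 300 named genes that were called, 228 stayed called in every omission of 1 array. The cause of lost calls was not tested. Among named genes that were not called, 7 changed sign, a count that does not include Cnih3. In omissions of 1 array Drd2 ran from -0.68 to 0.84, Grid1 from -0.29 to 0.89, Ndst3 from -0.25 to 0.17, Nr4a2 from -0.33 to 0.07 and Ttr from -2.03 to 9.72. Drd2 was at -0.07 after quantile normalization. Without both choroid-high arrays Grid1 was at -0.33, Plk5 at -0.02 and Stxbp6 at -0.15. Of the medians of 76 lists, 4 changed sign after quantile normalization, 2 under the stricter filter (where 18 moved by more than the spread of arrays, with low members left out), 7 to 10 without single vehicle arrays and 12 without both choroid-high arrays. Depth has no count on arrays; genes near 3.937 have the least certain sizes.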

Other observations

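The genes in these paragraphs were chosen after their values were seen, and the same test and threshold apply to them. Both inhibitors of CaM kinase II were higher in cortex: Camk2n1 was at 15.33 and 15.25 in cortex against 11.97 and 11.46 in hippocampus (difference -3.57, SE 0.22, adjusted p = 1.1e-06). Camk2n2 was at 9.87 and 9.49 in cortex against 6.76 and 6.45 in hippocampus (-3.07, SE 0.32, adjusted p = 4.3e-05). Among auxiliary proteins of AMPA receptors, Cnih2 was at 12.77 and 12.74 in cortex against 15.93 and 15.65 in hippocampus (3.04, SE 0.25, adjusted p = 1e-05), on the side of Shisa6 and Cacng8. Its relative Cnih3 overlapped between tissues and was not called (0.39, SE 0.34), while Cacng3 and Cacng2 were higher in cortex. Relatives were likewise divided among calcium sensors of release, with Doc2b at 6.82 and 6.49 in cortex against 10.89 and 11.11 in hippocampus (20.3-fold higher in hippocampus) and Doc2a at 7.15 and 6.67 in cortex against 3.74 and 3.36 in hippocampus (10.3-fold higher in cortex), and among copines, with Cpne6 22-fold higher in hippocampus beside Cpne4, and Cpne5 8.63-fold higher in cortex. The vesicle protein Sytl2 was 9.71-fold higher in cortex. The hippocampal mean of Doc2a lay under 3.937, and the size of its difference rests on a level not shown to be above background.

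Several genes outside the lists were also far apart. The zinc finger gene St18 was at 7.92 and 7.96 in cortex against 12.69 and 12.25 in hippocampus (23.1-fold higher in hippocampus), the sodium/proton exchanger Slc9a4 at 3.47 and 3.36 in cortex against 8.01 and 7.76 in hippocampus (22.2-fold) and the imprinted gene Nnat (neuronatin) at 9.70 and 10.62 in cortex against 14.56 and 14.50 in hippocampus (20.7-fold). The cytokine Il16 was 20.7-fold, the small G protein Rasd1 13.8-fold, the protease inhibitor Serpina3n 13.4-fold and the thyroid hormone-binding Crym 7.89-fold higher in hippocampus. The cortical means of Slc9a4, Il16 and Rasd1 likewise lay under 3.937. In cortex the phosphatase regulator Arpp19 was at 10.38 and 10.09 in cortex against 6.11 and 5.99 in hippocampus (18.2-fold higher there). The Kv4 channel partner Dpp10 was 14-fold, the IGF-binding Igfbp6 14-fold and the neurturin receptor Gfra2 12.8-fold higher in cortex. Among sulfotransferases, Ndst3 differed by -0.03 (SE 0.27) where its relative Ndst4 was 74.3-fold higher in hippocampus.

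A group of genes from 1 stretch of mouse chromosome 4 was higher in cortex together: the chemokine Ccl27a differed by -3.73 (SE 0.34), and the chemokines Ccl21a and Ccl21b by -3.36 and -3.07. This stretch holds near-identical copies, so probe sets can share signal, and these values are uncertain.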
